A study of Rattus norvegicus with 8 samples.

Results

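Axon injury switches on a known set of genes in the nerve cell body, and 10 of them were followed here: the transcription factors Atf3, Jun, Sox11, Klf6 and Ddit3, the pseudokinase Trib3, the growth cone proteins Gap43 and Cap23, the small proline-rich protein Sprr1a and the membrane peptidase Ecel1. They were chosen by name among the array spots that are not controls. Of the 10 names, 9 were found among 26334 gene names on the array, each with 1 probe in 1 spot. Cap23 is not a gene name of the array, and its current symbol, Basp1, was used in its place and is always given as Basp1.

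The retinas came from female Lister Hooded rats aged 8 weeks. In 4 rats the right optic nerve was crushed 3 mm behind the optic disc by forceps held shut for 10 s (ONC). For the 4 sham-operated rats (CTR) the surgery exposed the nerve without crushing it. All were under xylazine and ketamine, and whole retinas were taken 2 weeks later. RNA of 2 retinas was hybridised to each of 4 Agilent arrays, 1 in Cy3 and 1 in Cy5. By the labels every array holds a CTR retina in Cy5 and, in Cy3, the ONC retina that bears its number, so dye and condition cannot be told apart. The study's methods give another layout, with retinas of 1 group sharing an array, so a sign given below is one between labels. It opposes the direction the study gives for RGC markers and for Ecel1, Csrp3 and Ifi27l2b.

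When an axon is cut or crushed, the kinase DLK and its target JNK carry the signal to the nucleus, where Jun and Atf3 start a program that can end in regrowth or in death of the cell. Retinal ganglion cells (RGCs) are the retinal neurons whose axons form the optic nerve, and they are the cells of the retina that the crush injures directly. Ddit3 (CHOP) and Trib3 belong to the stress arm of the response, while Gap43, Basp1, Sprr1a and Sox11 are linked to axon growth. In bulk retina, fewer cells of a type and less RNA per cell cannot be told apart.

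The probes of the genes whose levels varied most, and of the genes near background, are shown by the first 30 of their 60 bases, since each value below is the brightness of a single such probe. By the array's design they lie, on the rn4 assembly, at chr13:107191582-107191614 for Atf3 (an interval of 33 bases, shorter than the probe), chr9:85939300-85939359 for Ecel1, chr2:185463951-185464010 for Sprr1a, chr2:76877616-76877675 for Basp1 and chr6:45141898-45141957 for Sox11, all on the minus strand. Exon and UTR annotation on that assembly was not used here.
Atf3: tctgtgaaatcctcagtgttcaatccagac
Ecel1: gccttccactgtcccaaggactctcccatg
Sprr1a: ggggaataagacaagtatatgttcaatatt
Basp1: ctctatcctatactaacttgtttcaaattg
Sox11: gagatgatcgcgggggactggctggaggcg

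Before any result on the injury genes, the labels were set against markers of RGCs. Of 22 markers listed, 20 were on the array and 17 passed the spot filter, and their summed normalised level was 24.2, 59.5, 24.3 and 29.9 for CTR1 to CTR4. For ONC1 to ONC4 the sums were 64.6, 64.1, 65.6 and 26.9. Low sums were thus found in CTR1, CTR3, CTR4 and ONC4 and high ones in the other 4 channels, so CTR2 and ONC4 stand apart from the other channels of their label. Crush is known to kill RGCs, and by that knowledge the markers of CTR2 and ONC4 go with their labels and those of the other 6 channels go against theirs. By the labels ONC was above CTR for 16 of the 17 markers, and their median difference was 0.79 on the log2 scale. The brightest of their probes was that of Stmn2. Isl2, Pou4f3 and Tbr1 did not pass, and Tbr1 was not well above background in any channel. The labels were kept for all channels, and values without CTR2 and ONC4 are given where they change a call or clearly move a member.

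Signal over background decides which members can be used. A spot was kept where its foreground was at least 2 times its local background in all 8 channels, and 7 of the 9 members found passed, as did Basp1. Sox11, a SoxC factor that promotes axon growth, had a foreground of 1.68, 2.19, 1.74 and 1.75 times the background in CTR1 to CTR4. In ONC1 to ONC4 its foreground was 4.23, 3.86, 3.00 and 3.63 times a background that is lower in Cy3. Sox11 fell below 2 times the background in CTR1, CTR3 and CTR4, so it was too dim to use. The software also did not mark it as well above background in ONC3 or ONC4. Sprr1a, which is nearly silent in uninjured neurons and promotes outgrowth after injury, stood at 5.01, 1.44, 6.93 and 9.09 times the background in CTR1 to CTR4. In ONC1 to ONC4 it stood at 2.69, 2.76, 3.41 and 6.58 times. Its spot was well above background in CTR1, CTR3, CTR4 and ONC4 and not in the other channels. In CTR2 it fell below 2 times the background, so Sprr1a too was too dim for the fit, although its bright channels were clear.

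**Figure D1:**
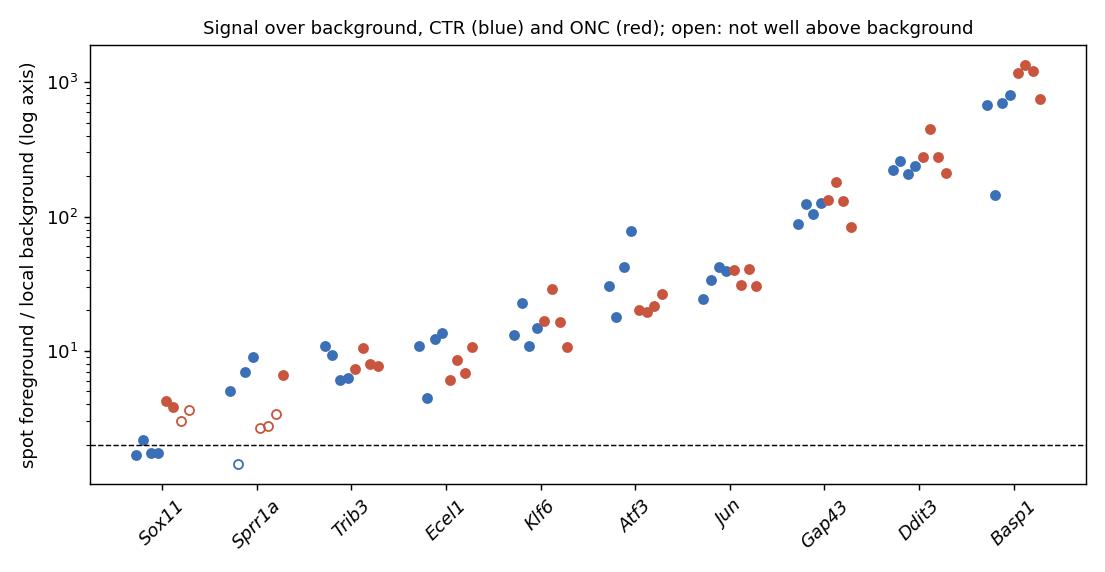
Foreground over local background (log axis) of each gene's spot in the 4 CTR (blue) and 4 ONC (red) channels, with open circles where the software did not mark the spot as well above background and a dashed line at 2. Sox11 and Sprr1a have channels below the line, and the others lie above it in all channels.

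Atf3 is the stress-induced factor that marks injured neurons most sharply. Its normalised log2 level, where 0 is the median spot of the channel, was 0.32, -1.03, 0.90 and 1.86 for CTR1 to CTR4. For ONC1 to ONC4 it was -0.65, -1.53, -0.71 and 0.60. Atf3 was thus high in CTR1, CTR3, CTR4 and ONC4 and low in CTR2 and the other ONC channels, and the groups overlap. The means were 0.51 ± 1.20 (SD, n = 4) in CTR and -0.58 ± 0.88 (SD, n = 4) in ONC. The log2 fold change of Atf3 in ONC against CTR was -1.09 (standard error 0.61, 95% interval -2.47 to 0.29, adjusted p = 0.385 by limma), which did not exceed the spread between channels. On 0 of 4 arrays was ONC above CTR. With the array as a replicate block, the adjusted p of Atf3 was 0.0327 by limma, so the paired fit calls it lower in the ONC channels. For Atf3 the log2 fold change was -0.64 without CTR4, -1.60 without CTR2 and -1.99 without CTR2 and ONC4 (adjusted p = 0.0538 by limma).

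Ecel1 is a neuronal membrane peptidase induced by nerve injury. Its log2 level was -1.14, -3.04, -0.93 and -0.63 for CTR1 to CTR4. In the ONC channels it was -2.59, -3.00, -2.54 and -0.84 in ONC1 to ONC4. The channels where Ecel1 was high were those where Atf3 was high, with CTR2 among the low and ONC4 among the high ones, and the groups overlap. The log2 fold change was -0.80 (standard error 0.59, 95% interval -2.15 to 0.54, adjusted p = 0.523 by limma), and ONC was higher on 1 of 4 arrays. For Ecel1 it was -0.53 without CTR4, -1.34 without CTR2 and -1.27 without ONC4. Without CTR2 and ONC4 it was -1.80 (adjusted p = 0.00795 by limma). Those channels were singled out by markers that run opposite to this gene, so the call rests on which channels are kept. With the array as a replicate block the adjusted p was 0.133 by limma.

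Sprr1a could be followed only without the filter, on signals corrected by the normexp method. Its log2 level there was -0.61, -2.53, 0.01 and 0.20 for CTR1 to CTR4. In ONC1 to ONC4 it was -1.98, -2.65, -1.44 and -0.32. The bright channels of Sprr1a were the same 4 as for Atf3 and Ecel1. The values of CTR2, ONC1, ONC2 and ONC3 come from a spot not well above background and are only upper bounds on the signal, so no fold change or test is given for Sprr1a. For Sox11, whose spot is near background, none is given either.

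Set against each gene's own mean over the 8 channels, the RGC markers ran the other way. Their median was -1.01, 0.83, -0.86 and -0.54 in CTR1 to CTR4, with ONC1 to ONC4 at 0.81, 0.79, 0.97 and -0.87. Atf3 and Ecel1 were above their own means in the 4 channels where the marker median was below 0, and below them in the 4 where it was above. The spot of Sprr1a was well above background only in the first 4 of these. The channels fall into 2 clusters, so no correlation is given, and the part of RGC content or of other cell types in the levels of these 3 genes was not tested. Markers of microglia were at 0.14, -0.38, 0.51 and 0.53 in CTR1 to CTR4, with ONC1 to ONC4 at -0.28, -0.11, -0.32 and -0.06, over 12 of 12 genes. Markers of Müller glia and astrocytes, 10 of 12 of which passed, had medians of 0.079, -0.11, 0.25 and 0.19 in CTR1 to CTR4, with ONC1 to ONC4 at -0.16, -0.28, -0.12 and 0.021. Their median was thus above 0 in the same 4 channels as Atf3 and Ecel1, but barely so in ONC4. Single genes of this list differed. Gfap was high only in CTR3 (-0.20) and CTR4 (0.17), with CTR1 at -1.84 and ONC4 at -1.69. Glul was lowest in CTR4, at 2.97. Sprr1a is also a gene of cornified epithelia, of whose markers 2 of 9 passed the spot filter.

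**Figure D2:**
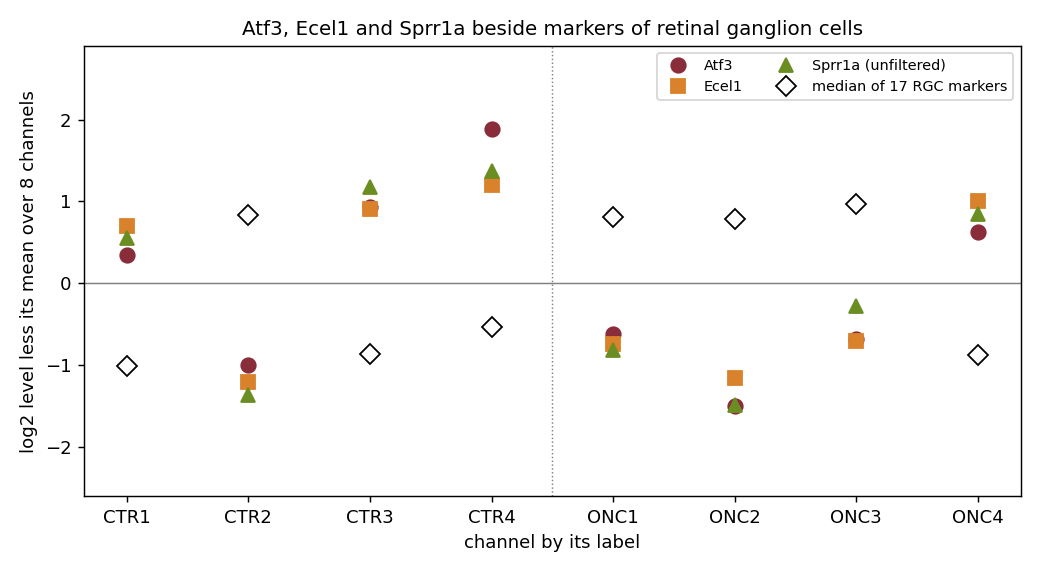
Log2 level less its mean over the 8 channels for Atf3, Ecel1 and Sprr1a (filled symbols, Sprr1a without the spot filter) and the median of 17 RGC markers (open diamonds), by channel label. The injury genes are above 0 in CTR1, CTR3, CTR4 and ONC4, where the marker median is below 0. No point of Sprr1a is a measured difference, since its values in the other 4 channels, which enter its mean, are upper bounds.

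Promoters are shown for Sprr1a and Ecel1, whose spots were bright in the same channels as that of Atf3, which the reference did not hold. RefSeq sequences on the GRCr8 assembly matched 7 of the 10 genes (Basp1, Ddit3, Ecel1, Klf6, Sox11, Sprr1a and Trib3), and the 250 bases before the start of Sprr1a (chr2:180752626-180752875) and Ecel1 (chr9:95274573-95274822), both on the minus strand, are printed with matches in capitals. The motifs searched on both strands were AP-1 (TGANTCA), CRE (TGACGTCA), the ATF4/CHOP composite element (TGATGNAAN) and the TATA box (TATAAA). The search and its counts also took in a short stretch after the start, in which none of the 7 genes had a match.
Sprr1a: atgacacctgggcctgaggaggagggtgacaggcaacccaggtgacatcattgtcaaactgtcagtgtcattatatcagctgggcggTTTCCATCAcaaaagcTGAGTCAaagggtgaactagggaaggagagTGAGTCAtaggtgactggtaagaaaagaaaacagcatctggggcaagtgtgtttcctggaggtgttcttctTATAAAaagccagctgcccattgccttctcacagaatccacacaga
Ecel1: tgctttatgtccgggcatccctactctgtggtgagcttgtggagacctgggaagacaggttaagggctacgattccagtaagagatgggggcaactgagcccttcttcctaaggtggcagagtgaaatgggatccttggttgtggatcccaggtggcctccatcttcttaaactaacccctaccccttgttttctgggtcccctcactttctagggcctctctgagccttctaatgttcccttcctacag

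In Sprr1a, counting back from the start at -1, AP-1 matches began at -147 and -117, with an ATF4/CHOP match on the other strand from -163 and a TATA box from -46. In Ecel1 no motif was found. AP-1 was found in 2 of the 7 promoters (Ddit3 and Sprr1a), against 7.33% of 33469 promoters. The ATF4/CHOP element was found in Sprr1a and Trib3, against 3.97%, and the TATA box in the same 2 genes, against 14.2%. CRE was in 0 of the 7, against 1.83%. A match of letters is not a bound site, and none of these counts was tested.

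Jun is the AP-1 subunit that JNK phosphorylates after axon injury. Its log2 level was 0.24, 0.09, 0.91 and 0.46 in CTR1 to CTR4, with ONC1 to ONC4 at 0.27, -0.75, 0.24 and 0.52. The groups overlap, and ONC2 alone is clearly low. For Jun, ONC less CTR was -0.35 (standard error 0.28, adjusted p = 0.551 by limma). It was -0.079 without ONC2, -0.19 without CTR3 and -0.61 without CTR2 and ONC4.

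Ddit3 is the factor of the unfolded protein response that promotes cell death. It was steady, between 3.11 and 3.35 in the CTR channels and between 3.14 and 3.45 in the ONC channels. The log2 fold change of Ddit3 was 0.02 (standard error 0.10, 95% interval -0.21 to 0.24, adjusted p = 0.954 by limma), and its sign changed under 7 of 21 alternatives (-0.069 without CTR2 and ONC4). Trib3, which Ddit3 and Atf4 induce and which restrains the kinase Akt, lay between -2.14 and -1.47 in the CTR channels, while the ONC channels ran from -2.39 to -1.90. CTR1 was the highest channel of Trib3, and the background of that spot and of Jun's carried an outlier mark of the software in CTR1. The log2 fold change was -0.22 (standard error 0.17, adjusted p = 0.523 by limma), and for Trib3 it was -0.069 without CTR1, -0.14 without ONC2 and -0.37 without CTR2 and ONC4.

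Klf6 is a Krüppel-like factor that supports axon growth. Its levels ran from -1.12 to -0.66 in the CTR channels, those of ONC from -1.05 to -0.86, and ONC less CTR was -0.05 (standard error 0.11, adjusted p = 0.861 by limma), which turned to 0.032 without CTR4 and was -0.12 without CTR3. Gap43, a growth cone protein that RGCs carry at high levels while their axons grow, was 1.87, 1.75, 2.17 and 2.41 in CTR1 to CTR4, with ONC1 to ONC4 at 2.11, 1.93, 2.10 and 1.77. The groups overlap. For Gap43 the difference was -0.07 (standard error 0.15, adjusted p = 0.857 by limma), and it turned to 0.051 without CTR4.

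Basp1, a growth cone protein of the same kind as Gap43, had one channel far from the rest. Its log2 level was 4.88, 2.01, 5.04 and 5.16 in CTR1 to CTR4, with ONC1 to ONC4 at 5.32, 4.75, 5.51 and 5.36. CTR2 was low and the other 7 channels were close together. The foreground of its spot was 7580 in CTR2, while the others ran from 19400 to 50032. The log2 fold change was 0.96 (standard error 0.63, adjusted p = 0.463 by limma), with ONC higher on 4 of 4 arrays, and it was 0.21 without CTR2 and 0.17 without CTR2 and ONC4. The low value of Basp1 in CTR2 thus sets most of its difference. Lens markers, 10 of 10 of which passed, had their highest median in CTR2, 1.21 above their own means, and their part in the level of Basp1 was not tested.

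**Figure D3:**
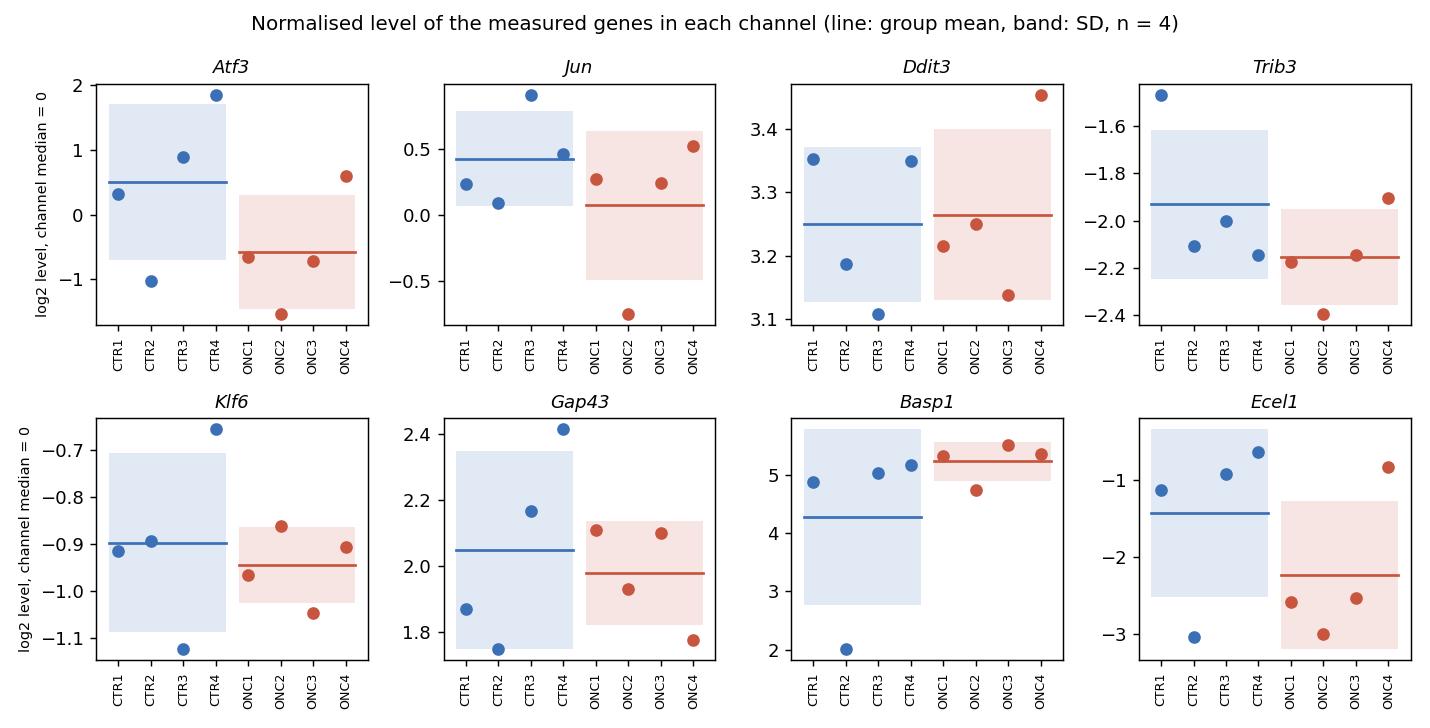
Normalised log2 level of the 8 measured genes in each channel, CTR in blue and ONC in red, with the group mean as a line and the SD as a band (n = 4). The vertical scales differ between genes, and the groups overlap in every panel.

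Over the 8 genes measured, limma called 0 at an adjusted p under 0.05, against 81 of 16307 genes tested (0.497%). At an unadjusted p under 0.05 it called 0 of the 8, against 3025 genes (18.6%). With the array as a replicate block, 1 of the 8 was called (Atf3), against 7.69% of all genes. Without CTR2 and ONC4 it was 1 of the 8 (Ecel1), against 2.54%, and without loess 0 of the 8, against 19.6%. Of the 8, 2 were higher and 6 lower in ONC. Their median log2 fold change was -0.15, and over all genes 7732 were higher and 8575 lower, with a median of -0.01. The standard deviation over all 8 channels was 1.14 for Atf3, 1.04 for Ecel1 and 1.14 for Basp1, larger than in all but 0.319%, 0.466% and 0.313% of genes, beside a median of 0.20. Ddit3 (0.12) and Klf6 (0.14) varied less than the median gene.

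**Figure D4:**
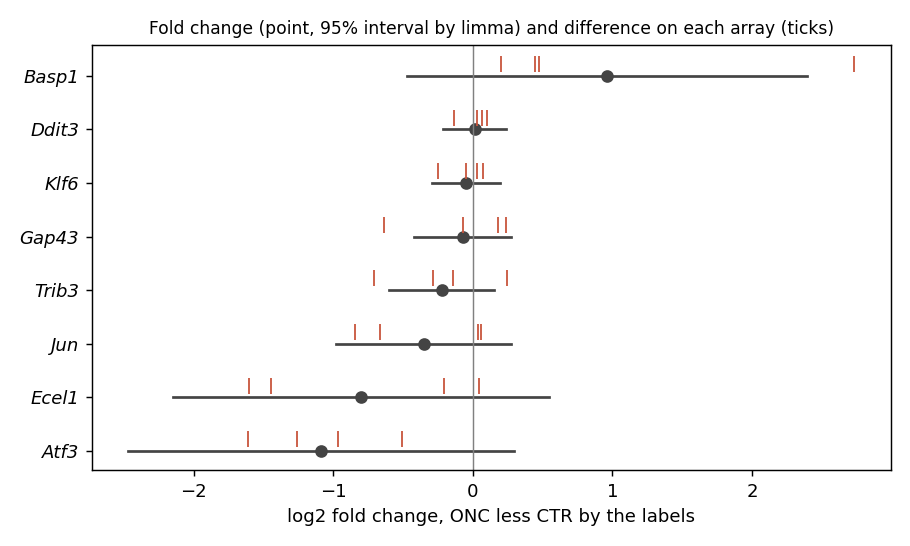
Log2 fold change of each measured gene in ONC against CTR by the labels (points) with its 95% interval by limma (lines), and the difference between the channels of each array (ticks). All intervals include 0, and the 4 ticks of Atf3 lie below 0.

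The genes whose centred levels were most like each member were found by root mean square difference over the 8 channels, for the members with an SD of at least 0.3. Closest to Atf3 were Ifi27l2b (0.21) and Rsad2 (0.23), both induced by interferon, then Gal (0.31), the neuropeptide galanin, Tgfbi (0.32) and Ecel1 (0.34). Closest to Ecel1 were Gal (0.19), Sdcbp2 (0.20), Tgfbi (0.24), Oas1k (0.25) and Ifi27l2b (0.29). The 5 entries most like Jun were Hpcal4 (0.14), Chmp1a (0.15) and 3 that carry no gene symbol. Basp1 had no close match, with Sod1 (0.44), Acvr2b (0.44), Dct (0.56), Slc25a13 (0.59) and an entry without a symbol (0.60) first, all lowest in CTR2.

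The genes around the members were taken as lists, whose counts stand beside 0.497% of all genes called, 18.6% at an unadjusted p under 0.05 and 7.69% with the array as a replicate block. Calls without CTR2 and ONC4 are given as a description, since those channels were singled out by markers that share a channel pattern with some of these genes. Of 14 DLK and JNK genes listed 11 passed the filter, and limma called 0 (0 at an unadjusted p under 0.05), with 8 higher and 3 lower in ONC, and the median was 0.09 on the log2 scale. The extremes were the kinase Mapk9 at 0.28 and the phosphatase Dusp1 at 0.22, and Dusp16 at -0.09 and the kinase Map3k13 at -0.04, which turned to 0.13 for Dusp16 without loess and to 0.012 for Map3k13 without the spot filter on normexp signals. Mapk9 was at 0.15 without CTR1, and Dusp1 at 0.074 without CTR3 and 0.12 without ONC1, while without loess they were at 0.51 and 0.56. Of 15 AP-1 and partner factors 9 passed, and limma called 0 (4 unadjusted, 2 in each direction), with 5 higher and 4 lower and a median of 0.11. Jund stood at 0.59 (adjusted p = 0.0581 by limma) and Fosb 0.49. Fos stood at -0.62 and Junb at -0.59. Fitted with the array as a replicate block, Jund (adjusted p = 0.0282), Fosb (0.0391) and Junb (0.0449) were called by limma.

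Of the unfolded protein and integrated stress response list, 22 of 22 passed and limma called 0 (3 higher and 1 lower unadjusted), with 10 higher, 12 lower and a median of -0.03. Ppp1r15a, which restores translation after stress, was at 0.49 and Cebpb at 0.48, and Atf5 was at -0.48 and Cebpg at -0.22, which was -0.12 without CTR4 and -0.34 without ONC4. In the paired fit Atf5 was called (adjusted p = 0.0290 by limma). Of 12 Klf and SoxC factors 11 passed, and limma called 0 (3 higher and 1 lower unadjusted), with 5 higher, 6 lower and a median of -0.07. Klf7, which promotes axon growth, was at 0.61, and Klf9, which restrains it, at 0.55 (adjusted p = 0.0550 by limma). Klf4, another brake on growth, was at -0.27, and Klf2 at -0.45, which turned to 0.070 without loess and was -0.30 without ONC2. Without CTR2 and ONC4, limma called Klf7 at 0.81 (adjusted p = 0.0291) and Klf9 at 0.59 (adjusted p = 0.0475), beside 2.54% of all genes. With the array as a replicate block, Klf9 (adjusted p = 0.0334), Klf16 (0.0486) and Klf2 (0.0497) were called by limma.

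Among the growth cone and regeneration genes, 33 of 40 passed, 18 were higher and 15 lower, and the median was 0.04. Here limma called 2 (3 higher and 4 lower unadjusted). By the labels Marcksl1, an actin-regulating relative of Marcks, stood at 2.67 ± 0.09 (SD, n = 4) in CTR and 3.13 ± 0.02 (SD, n = 4) in ONC. Its difference was 0.46 on the log2 scale (standard error 0.08, adjusted p = 0.0449 by limma). Tuba1a, an alpha-tubulin of growing neurons, stood at 6.94 ± 0.11 in CTR and 6.33 ± 0.11 in ONC (SD, n = 4). Its difference was -0.61 on the log2 scale (standard error 0.09, adjusted p = 0.0438 by limma). The groups of Marcksl1 and of Tuba1a do not overlap, as in 12.7% of all genes. By the labels dye and condition cannot be told apart, so neither difference can be assigned to the crush. With a single channel left out neither passed, while the sizes ran from 0.42 to 0.49 for Marcksl1 and from -0.65 to -0.56 for Tuba1a, which was at -1.01 without loess. With the array as a replicate block they were joined by the small heat shock protein Hspb1 at -0.74 (adjusted p = 0.0290) and the stathmin Stmn4 at -0.60 (adjusted p = 0.0370), both by limma. Csrp3 (-1.50), Gal (-0.91) and Map1b (1.25) had larger differences that did not pass with all channels, and Gal was at -0.58 without CTR4 and -1.53 without CTR2. Gal and Csrp3 were high in CTR1, CTR3, CTR4 and ONC4, as Atf3 was. CTR2 and ONC4 were singled out by markers that run opposite to these genes, so leaving them out widens the difference of Gal and Csrp3 by that choice. Without the 2 channels limma called both, Gal at -1.97 (adjusted p = 0.0228) and Csrp3 at -2.72 (adjusted p = 0.00460). Tuba1a (adjusted p = 0.0400) and Hspb1 at -1.21 (adjusted p = 0.0385) were called there too, and Marcksl1 was not (adjusted p = 0.0538 by limma). Map1b was at -3.74 in CTR3, with the others from -0.49 to 0.64, and its log2 fold change was 0.33 without CTR3.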

How the data were processed

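Intensity was deposited for each of 44254 spots on 4 dual-colour arrays, of which the mean foreground, the median local background and, as an alternative, the signal processed by the software were used. The software version is 12.0.3.1 of Feature Extraction per the file headers, while the submitters' processing notes give 11.1.19.1. Median foreground was 218 to 626 over backgrounds of 26.0 to 56.5, and the number of arrays limits the precision. The label of each channel gave its group, although the study's methods describe another dye layout. Gene lists were written by hand.

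Background was subtracted, and 1377 control spots, outlier spots and those where any channel had a foreground below 2 times its background were left out, which kept 27371 spots, 18599 probes and 16307 genes. Signals were normalised by loess within each array (span 0.3) and centred on each channel's median, and log2 values were averaged over the spots of a probe and then over a gene's probes. ONC was set against CTR by the two-sided moderated test of limma (version 3.58.1, R 4.3.3), with p-values adjusted over all genes by Benjamini-Hochberg and a threshold of 0.05. The procedure was tested on simulated data. Tables and figures used Python 3.11.15, pandas 2.3.3 and matplotlib 3.10.9.

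Which outlier flags to use was not written down at the start. The setting tried first used all 4 flags of the software, kept 14644 genes, called 113 of them and left out Jun and Trib3 for a background flag in CTR1. The 3 flags used here (non-uniform spot, non-uniform background, spot outlying among its copies) were then taken because they give the spot, probe and gene numbers of an earlier processing of these data. By then the calls with all 4 flags and with none (79 of 16623 genes) had been seen, and both settings are kept as alternatives added after seeing the data.

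The members and lists were chosen with earlier results of these data known. Named genes are all members (Basp1 for Cap23), every called gene of a list and its 2 largest positive and 2 largest negative fold changes, the 5 genes most like each member, and the genes called with the array as a replicate block or without CTR2 and ONC4, which were chosen after their values were seen. Of the latter, 1 gene is not reported here. Same-numbered channels deviated together from their group means (r = 0.15, 0.55, 0.40 and 0.49 across genes for arrays 1 to 4). CTR1, however, deviated slightly more with ONC2 (r = 0.17) than with ONC1, so these values do not set array 1 apart. The number, which by the labels marks a shared array, was used as a replicate block beside the main result. Alternatives covered normalisation, signal, filters, flags, the methods' t-test and each channel left out.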

Additional observations from a re-analysis of the deposited data

Results flagged for a closer look

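The log2 level of Basp1 in CTR2 was 2.01, against 4.88, 5.04 and 5.16 in the other CTR channels, and its gap to the nearest of them was 0.909 of the whole range of the group. Chance alone marks about 1 in 20 groups of 4 in this way, and 1 of the 16 groups looked at here was marked. The gene rests on 1 spot. The 5 genes most like Basp1, picked for that likeness, were also lowest in CTR2.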

How the results depend on the processing

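The median log2 fold change of the 8 measured genes, -0.15, ran from -0.23 to -0.062 over the alternatives, and was -0.066 over the 6 genes left with all 4 outlier flags. The 0 calls among them became 1 with the array as a replicate block (Atf3) and 1 without CTR2 and ONC4 together (Ecel1). Over its alternatives the adjusted p of Atf3 ran from 0.0327 to 0.805 and that of Ecel1 from 0.00795 to 1.0, both by limma or the methods' t-test, with the sign the same in 21 of 21.

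The 81 calls over all genes became 1254 with the array as a replicate block, of which 81 are shared, 3194 without loess (71.0% higher in ONC by the labels, against 46.9%, or 29.0% against 53.1% with the sign turned), 412 with Aquantile, 21 with processed signals (57.1% higher by the labels, 42.9% with the sign turned), 0 by limma without the filter on dim spots and with normexp in place of subtraction (1957 unadjusted), 123 with the software's mark as filter, 415 without CTR2 and ONC4, 0 by limma with CTR2, CTR4, ONC1 and ONC3 only (1961 unadjusted) and 124 with the brightest probe. They were 79 with outlier spots kept, 113 with all 4 flags used and 14 with normexp and the filter kept, settings chosen after seeing the data. Of these 14, 71.4% were higher by the labels, or 28.6% with the sign turned. The methods' t-test at an unadjusted p under 0.05, without the fold threshold per gene that the study adds to it, called 2682, and 0 after Benjamini-Hochberg. With 1 channel left out, limma called 0 to 38 (2085 to 3252 unadjusted), the 38 without ONC2. Of those 38, 76.3% were higher by the labels, or 23.7% with the sign turned.

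Calls in the lists were 3 (AP-1), 1 (stress response), 3 (Klf and SoxC) and 4 (growth cone) with the replicate block, and 1 (DLK and JNK), 5 (AP-1), 2 (stress response), 3 (Klf and SoxC) and 5 (growth cone) without loess, where 19.6% of all genes were called. Aquantile gave 1 for AP-1 and 1 for Klf and SoxC. The Klf and SoxC list had 1 with the software's mark, 1 with the brightest probe, 1 with all 4 flags and 2 without CTR2 and ONC4. The growth cone list had 5 without CTR2 and ONC4, 1 with all 4 flags, 0 with processed signals, 0 without the filter on normexp signals, 0 with normexp and the filter kept, 0 with 4 channels and 0 with any 1 channel left out.

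Ddit3 turned to -0.066 without loess, -0.17 with processed signals, -0.069 without CTR2 and ONC4 and -0.091 with 4 channels, and ran from -0.048 to 0.057 with 1 channel left out. Gap43 turned to 0.023 with 4 channels and ran from -0.17 to 0.051 with 1 left out, and Klf6 from -0.12 to 0.032. Klf6 was at -0.23 with 4 channels and at -0.0014 without loess. Dusp16 turned to 0.13 and Klf2 to 0.070 without loess, and Dusp16 ran from -0.24 to 0.037 with 1 left out. Map3k13 turned to 0.012 without the filter on normexp signals, 0.094 without CTR2 and ONC4 and 0.18 with 4 channels, and ran from -0.13 to 0.072. Trib3 was at -0.037 without loess and -0.033 with 4 channels, where Jun was at -0.019 and Basp1 at 1.83. The cause of these changes was not tested. Signal over background limits Sox11 and Sprr1a.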
